A study of Canis lupus familiaris with 45 samples.

Results

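Genes of cholesterol efflux and lipoprotein handling, 9 in all, were followed in the subcutaneous fat of beagles: NR1H3, ABCA1, ABCG1, MYLIP, APOE, APOD, PLTP, SCARB1 and VLDLR. They were chosen by symbol, as every probe set that the platform annotation assigns to 1 of these 9 genes. That gave 23 of the 43035 probe sets on the array, between 1 and 3 usable ones per gene. Of the 23, 18 passed the filter on dim probe sets, a log2 value above 4 on at least 4 of 45 arrays, as did 22690 probe sets in all (52.9% of those that are not array controls). The other 5, 1 each of ABCA1, ABCG1, APOD, APOE and VLDLR, stayed below 4 on all 45 arrays and were not tested.

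The samples came from 9 intact female dogs aged 4 years, all on the same commercial dry diet and biopsied after an overnight fast. In 4 control dogs (1, 3, 4 and 9) the ration held body weight at its starting level, and 5 dogs (2, 5, 6, 7 and 8) ate ad libitum. Each dog gave 1 sample at week 0, before ad libitum feeding began, and at weeks 4, 8, 12 and 24, for 45 arrays in 10 groups of 4 or 5 dogs. The labels name breed, sex and diet but no genotype or drug treatment, and all the dogs shared breed, sex and diet.

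Cells cannot break down the sterol ring, so surplus cholesterol leaves them on lipoprotein particles. Oxysterols activate the liver X receptors, of which NR1H3 encodes LXRα, and these switch on the transporters ABCA1 and ABCG1, the acceptor protein APOE, the remodelling protein PLTP and MYLIP, a ubiquitin ligase that marks lipoprotein receptors for degradation. SCARB1 is the receptor for high-density lipoprotein, and VLDLR binds particles that carry APOE. Fat is a large store of unesterified cholesterol, and adipocytes and macrophages of fat are both known to make APOE.

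Values are GCRMA expression values on the log2 scale, so a difference of 1 is a doubling. Where a gene had several probe sets, its brightest is given unless another is named. Differences were tested with limma across all 22690 probe sets, with a term for batch and the dog as a random block, and "adjusted p" is the Benjamini-Hochberg value over all of them, with a threshold of 0.05.

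All 12 adipocyte markers measured were above 4 on all 45 arrays, led by FABP4 with a mean of 15.80. On 10 arrays, 5 of them control and 5 ad libitum, skeletal muscle transcripts were also present, with a list mean of 7.77 to 14.11 against 3.51 to 5.40 on the other 35. At week 0 these were 5 of 9 arrays, and at week 24 they were control dogs 3 and 4 and 0 of the 5 ad libitum dogs. On the 100 probe sets that separated the dogs best, 43 of 45 arrays were closest to the dog they are labelled with. At week 8, the array given as control dog 9 was closest to dog 5 (Pearson r = 0.80 over those probe sets), and that given as ad libitum dog 5 was closest to dog 9 (0.91). Week-8 values follow the labels, and since the 2 arrays lie in different feeding groups, week-8 differences are given with and without them. The week-24 array of control dog 4 also stood apart on the epithelium list, with a mean of 7.89 against 3.73 to 5.04 on the other 44 arrays. Every week-24 array lay in batch 6 and no earlier array did, so week 24 and batch 6 cannot be told apart in changes over time. Arrays of whole fat give levels per amount of RNA, so fewer cells of a type and less RNA per cell cannot be told apart.

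Across the 5 direct comparisons of ad libitum with control dogs, 1 of 18 probe sets passed the threshold, APOE at week 24. There the count was 1 of 18 (5.56%), beside 5.46% of all probe sets tested, with 9 of 18 differences above 0 and a median of 0.05 beside 0.01 over all probe sets. At weeks 0, 4, 8 and 12 the count was 0 of 18, beside 0%, 0.0132%, 1.42% and 0.00441% of all probe sets. At an unadjusted p under 0.05, limma gave 0, 0, 4 and 1 of the 18 at these weeks and 5 at week 24. Of all probe sets tested, 1.38%, 9.08%, 25%, 11.1% and 22.7% did so at weeks 0, 4, 8, 12 and 24. The share called among the members was thus near the background at every week. A count of 0 of 18 was also found for the mean of weeks 4, 8 and 12 (1.34% of all probe sets), for week 24 minus week 12 (0.0353%) and for the mean feeding effect of weeks 4 to 24 over week 0 (0%). At an unadjusted limma p under 0.05 these 3 gave 2, 4 and 0 of 18, beside 12.6%, 19% and 4.23% of all probe sets.

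**Figure D1:**
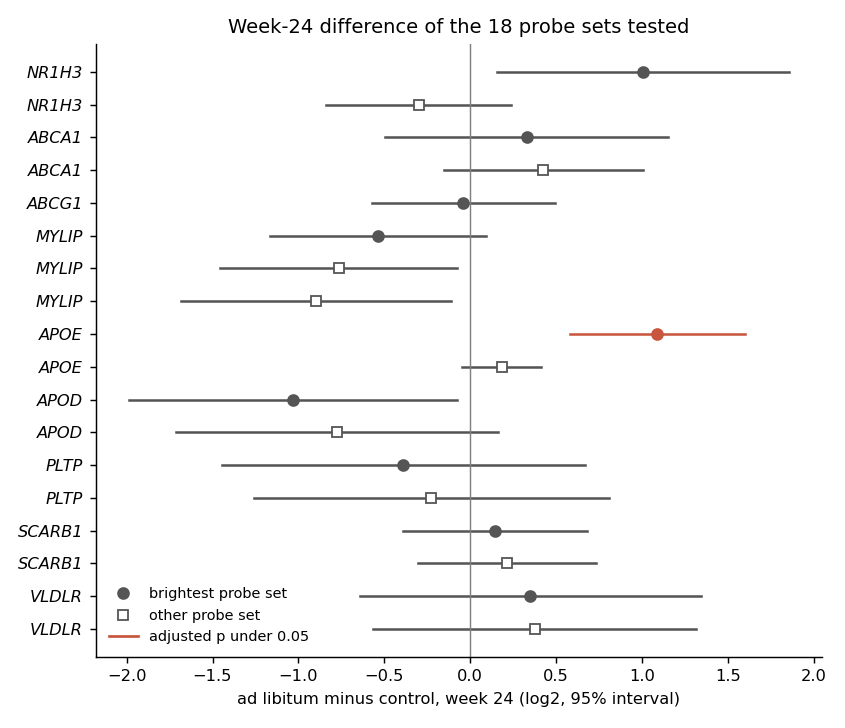
Difference between ad libitum and control dogs at week 24 for the 18 probe sets tested, on the log2 scale with its 95% interval. The APOE probe set at 1.09 is the 1 whose adjusted p was under 0.05, and 9 of the 18 differences lay above 0.

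APOE, the apolipoprotein that macrophages and adipocytes secrete and that lipoprotein receptors recognise, was about 2-fold higher in ad libitum than in control dogs at week 24. In ad libitum dogs 2, 5, 6, 7 and 8 it stood at 15.37, 14.52, 15.15, 15.03 and 15.12 (log2; mean 15.04 ± 0.32, SD, n = 5). In control dogs 1, 3, 4 and 9 it stood at 14.41, 13.21, 13.85 and 14.34 (mean 13.95 ± 0.55, SD, n = 4). The groups did not overlap: the lowest ad libitum dog, 5, was above the highest control dog, 1. APOE was higher by 1.09 (log2; SE 0.250, limma adjusted p = 0.00989), or 2.13-fold. A 2-sided exact permutation test of these 9 arrays, run for APOE alone after the data were seen, gave p = 0.0159. As the groups were known not to overlap, that p could only lie near 0.00794, the smallest of the 126 splits, so it adds little to the call.

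The week-24 call was lost in 4 of 21 alternatives, and what moved with it was measured. Without the arrays that held muscle, which leaves control dogs 1 and 9 at week 24, the difference was 0.69 (adjusted p = 0.197), and over all weeks APOE averaged 14.01 on the 10 arrays with muscle and 14.58 on the other 35. The adipocyte list mean was 13.12 (11.47 to 13.72) in ad libitum and 12.05 (11.22 to 12.56) in control dogs, with 3 of 12 of its genes past the threshold, all higher. The fibroblast and preadipocyte list went the other way, with 1 of 12 differences above 0 and means of 12.67 and 13.50, and APOE stood at Pearson r = -0.39 with it over the 45 arrays (-0.47 without muscle). APOE followed the adipocyte list over the 45 arrays (Pearson r = 0.70, and 0.56 over the 35 without muscle), which share dogs and were normalized together. With the macrophage list APOE stood at Pearson r = -0.25 (-0.49 without muscle). The actin 3′ minus 5′ value, a sign of RNA degradation, was 3.51 ± 0.91 (SD, n = 5) with free feeding and 4.79 ± 1.20 (SD, n = 4) in the controls for 1 pair of control probe sets, and with it as a covariate APOE was higher by 0.90 (adjusted p = 0.207). For the other pair it was 6.44 ± 0.49 and 6.84 ± 0.47, and the call held. Without dog 2 the difference was 1.01 (adjusted p = 0.0633), and without dog 4, whose week-24 array held muscle and epithelial transcripts, it was 1.06 (adjusted p = 0.0516). The part of cell content, muscle, epithelium and RNA quality in the APOE difference was not tested.

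**Figure D2:**
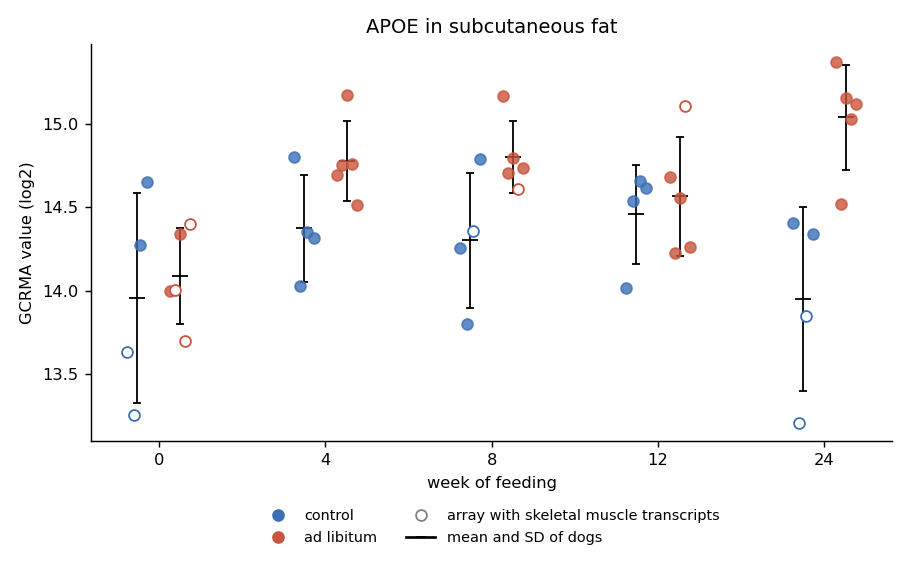
APOE by week of feeding (GCRMA value, log2), 1 point per dog, with the mean and SD of each group of 4 or 5 dogs. Open points are arrays with skeletal muscle transcripts. At week 24 the ad libitum dogs lie between 14.52 and 15.37 and the control dogs between 13.21 and 14.41.

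Within the ad libitum dogs APOE also rose from week 0 to week 24. It stood at 14.00, 14.00, 14.34, 13.70 and 14.40 in dogs 2, 5, 6, 7 and 8 at week 0, all below the lowest week-24 value, so the 2 weeks did not overlap. The change was 0.89 (SE 0.240, limma adjusted p = 0.0287), up in 5 of 5 dogs. A second APOE probe set, which spanned 5.33 to 6.30 over all arrays, rose by 0.42 (SE 0.109, limma adjusted p = 0.0243). These were 2 of 18 probe sets (11.1%), both of APOE, beside 4.78% of all probe sets tested. Without the arrays with muscle the changes were 1.05 (adjusted p = 0.104) and 0.52 (adjusted p = 0.154). They also missed the threshold without any 1 of dogs 2, 5, 6 or 8, the brighter also without dog 7 and the other without dog 9. With no filter, and with muscle as a covariate, the brighter missed it too, as did the other with quantile normalization. In control dogs the change was 0.01 (adjusted p = 0.986), up in 1 of 4. By mean change of the dogs, earlier weeks also stood above week 0 in both groups. At weeks 4, 8 and 12 this was 0.69, 0.72 and 0.48 in ad libitum dogs and 0.42, 0.35 and 0.50 in control dogs. None of these passed the threshold in the fit. With array weights the ad libitum changes at weeks 4 and 8 passed (both 0.73, limma adjusted p = 0.0107 and 0.00925). With no batch term that at week 8 did (0.72, adjusted p = 0.0380). The difference between the groups' changes from week 0 to a single week was not tested as such.

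At the earlier weeks, as labelled, APOE overlapped between the groups. The ad libitum minus control difference was 0.21 at week 0, 0.27 at week 4, 0.52 at week 8 and 0.08 at week 12 (limma adjusted p = 1.00, 0.729, 0.196 and 0.903). Without the 2 doubtful arrays the week-8 difference was 0.63 (adjusted p = 0.329), with 4 ad libitum dogs at 14.61 to 15.17 above 3 control dogs at 13.80 to 14.35. Both doubtful arrays lay within that ad libitum range. With their labels exchanged the groups would still overlap, so the separation appears only where both are left out. Ordered by mean, APOE was highest in ad libitum dogs at week 24 (15.04), then at weeks 8 (14.80), 4 (14.78) and 12 (14.57). Control dogs followed at weeks 12 (14.46), 4 (14.37) and 8 (14.30), then ad libitum dogs at week 0 (14.09), and control dogs at weeks 0 and 24 (both 13.95). Group SDs ran from 0.21 to 0.63, and the highest mean exceeded its neighbour, week 8, by about the SD of that group, so neighbours in this order are not clearly separated. Within batches 1 to 5, over weeks 4 to 12, ad libitum arrays minus control arrays gave 0.46, -0.03, 0.47, 0.41 and 0.09, on 1 to 4 arrays a side. The batches mix weeks unevenly between the groups, so these differences also compare weeks. The second probe set did not pass the threshold at week 24 (0.18, adjusted p = 0.339) and its groups overlapped there, while at week 0 they did not, with all ad libitum dogs below all controls (-0.08, adjusted p = 1.00). It followed the first with Pearson r = 0.54 over the 45 arrays.

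NR1H3, the sterol-sensing receptor itself, did not pass the threshold in any of the 16 comparisons of the fit described above. At week 24 it stood at 8.19, 7.83, 7.81, 8.21 and 8.93 in ad libitum dogs 2, 5, 6, 7 and 8 and at 6.21, 6.35, 8.67 and 7.51 in control dogs 1, 3, 4 and 9. The groups overlapped through control dog 4. The difference was 1.01 (95% interval 0.16 to 1.86, limma adjusted p = 0.143). Without dog 4, whose week-24 array held muscle and epithelial transcripts, it was 1.503 (adjusted p = 0.0427) and passed. With array weights on all 45 arrays it was 1.23 (adjusted p = 0.0133) and passed too. NR1H3 stood at Pearson r = 0.38 with the epithelium list over the 45 arrays (0.47 without muscle), and the part of these transcripts was not tested. Its second probe set was below 4 on all week-24 arrays and gives no direction there. At week 8 the difference was 0.90 (adjusted p = 0.181), and 0.83 (adjusted p = 0.448) without the 2 doubtful arrays. Its group means over the study ran from 7.19 in control dogs at week 24 to 8.60 in control dogs at week 4.

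ABCA1, which loads cholesterol and phospholipid onto lipid-poor apolipoprotein A-I, was lower in ad libitum dogs at week 8 than before feeding. At week 0 it stood at 7.20, 7.08, 6.54, 6.18 and 5.66 in dogs 2, 5, 6, 7 and 8, and at week 8 at 5.19, 5.29, 4.75, 5.35 and 5.42. The 2 weeks did not overlap, and ABCA1 was higher at week 8 in 0 of 5 dogs. It fell by 1.29 (SE 0.404, limma adjusted p = 0.0471), 1 of 18 probe sets (5.56%) beside 6.73% of all probe sets tested. The second ABCA1 probe set stood at -0.73 (adjusted p = 0.107), and without dog 8 at -1.21 (adjusted p = 0.00692), where it passed. The call was close to the threshold: it held in 10 of 22 alternatives, with changes between -1.94 and -1.08 in all 22. Without the 2 arrays at week 8 that matched another dog it was -1.30 (adjusted p = 0.0929), and without any 1 of dogs 2, 3, 4, 5, 6, 7 or 9 it missed the threshold too (-1.37 to -1.08, adjusted p = 0.0591 to 0.357).

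Control dogs at week 8 stood at 5.67, 7.05, 6.45 and 5.24 in dogs 1, 3, 4 and 9. They overlapped the ad libitum dogs through the array labelled dog 9 alone, which was closest to ad libitum dog 5. The array labelled ad libitum dog 5, closest to dog 9, stood at 5.29, so with the 2 labels exchanged the groups would overlap too. The direct difference was -0.93 (95% interval -1.76 to -0.10, limma adjusted p = 0.156). Without the 2 doubtful arrays the controls (5.67 to 7.05) lay above the 4 ad libitum dogs (4.75 to 5.42) with no overlap, and the difference was -1.01 (adjusted p = 0.333). At the other weeks it was -0.22, 0.33, 0.46 and 0.33 (weeks 0, 4, 12 and 24; adjusted p = 0.641 to 1.00), and the week-24 sign turned without dog 4 (-0.03). In control dogs ABCA1 changed by -1.21 from week 0 to week 24 (adjusted p = 0.0745) and by -1.07 to week 12 (adjusted p = 0.245). With array weights both passed, at -1.29 and -1.43 (limma adjusted p = 0.0130 and 0.0182). With the muscle covariate the change to week 24 passed too (-1.33, adjusted p = 0.0440). Group means were highest at week 0 in both feeding groups, 6.61 in control and 6.53 in ad libitum dogs.

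ABCG1, which exports cholesterol to mature high-density lipoprotein, was near the detection limit: it was above 4 on 10 of 45 arrays. In ad libitum dogs 2, 5, 6, 7 and 8 it stood at 3.76, 3.55, 3.63, 3.73 and 3.86 at week 0 and at 4.43, 5.18, 5.51, 3.77 and 4.97 at week 12. It was higher in 5 of 5 dogs, though dog 7, whose week-12 array held muscle, moved little and the 2 weeks overlapped. The fitted rise was 1.08 (SE 0.255, limma adjusted p = 0.0346), 1 of 18 probe sets (5.56%) beside 0.802% of all probe sets tested. All week-0 values lay below 4, so its size is uncertain: against 4, the week-12 mean of 4.77 is at least 0.77 higher (log2), or 1.71-fold. The stricter filter removed this probe set. In the same comparison 17 of 17 macrophage markers lay above 0, with a median of 0.53 and 0 past the threshold. The fibroblast and preadipocyte list had 10 of 12 above 0 (median 0.56) and the adipocyte list 2 of 12 (median -0.52), with 0 past the threshold in both. Over the 45 arrays ABCG1 stood at Pearson r = 0.53, 0.40 and -0.38 with these lists in turn (0.55, 0.47 and -0.57 without muscle). The part of these cell types was not tested. The ABCG1 call held in 15 of 21 alternatives. It was lost with no filter (1.09, adjusted p = 0.0696), with the muscle covariate (1.05, adjusted p = 0.0649) and without dog 2, 5, 6 or 9 (0.91 to 1.14, adjusted p = 0.0648 to 0.379).

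Control dogs at week 12 stood at 3.66, 3.85, 5.08 and 5.15 in dogs 1, 3, 4 and 9, with the high values in dogs 4 and 9, and the groups overlapped. The direct difference at week 12 was 0.27 (adjusted p = 0.674). Outside week 12, ABCG1 was between 3.49 and 4.68 on every array. At week 24 the difference was -0.04 (95% interval -0.57 to 0.49), and its sign was positive under quantile normalization, with either actin covariate and when dog 8 was left out. ABCA1 and ABCG1 did not move together over the 45 arrays (Pearson r = -0.02).

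MYLIP, the ligase that marks lipoprotein receptors for degradation, had 3 probe sets that followed each other over the 45 arrays (Pearson r = 0.80 to 0.97). At week 24 the brightest stood at 9.46, 11.02, 10.46, 10.64 and 10.47 in ad libitum dogs 2, 5, 6, 7 and 8 and at 10.89, 11.14, 11.12 and 10.64 in control dogs 1, 3, 4 and 9. The groups overlapped, with ad libitum dog 2 lowest. The differences were -0.54, -0.77 and -0.90 (limma adjusted p = 0.306, 0.172 and 0.160). MYLIP did not pass the threshold in any comparison of the fit described above. With array weights the dimmest probe set passed at week 24 (-0.93, adjusted p = 0.0306). For week 24 minus week 12 the dimmer probe sets then gave -1.35 and -1.54 and passed (adjusted p = 0.0146 and 0.0125).

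APOD, an apolipoprotein of the lipocalin family that is carried on high-density lipoprotein, was lower in ad libitum dogs at week 24 by a difference that did not pass the threshold. It stood at 12.88, 12.24, 11.69, 11.42 and 12.72 in ad libitum dogs 2, 5, 6, 7 and 8 and at 12.77, 14.04, 12.94 and 13.13 in control dogs 1, 3, 4 and 9. Ad libitum dog 2 lay above control dog 1, so the groups overlapped. The difference was -1.03 (95% interval -1.99 to -0.08, limma adjusted p = 0.183), and the second probe set gave -0.77 (adjusted p = 0.323). APOD differed more between dogs than the other members did: the dog took 38.0% and 43.1% of the variance of its 2 probe sets, beside 9.20% to 33.5% for the other 16. Dog 7 had the lowest mean over the 5 weeks, 11.64 ± 0.40, and dog 8 the highest, 13.50 ± 0.80 (SD over weeks, n = 5).

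PLTP, which transfers phospholipid between lipoproteins and remodels high-density lipoprotein, spread widely, from 7.87 to 11.78. At week 12 it stood at 10.21, 11.78, 11.69, 10.75 and 10.88 in ad libitum dogs 2, 5, 6, 7 and 8 and at 8.70, 10.56, 11.29 and 10.46 in control dogs 1, 3, 4 and 9. Control dogs 3, 4 and 9 lay within the ad libitum range and dog 1 below it. The week-12 difference was 0.79 (limma adjusted p = 0.530) and that of week 8 was 0.83 (adjusted p = 0.310). Over weeks 4 to 12 it was 0.60 (SE 0.315, adjusted p = 0.433). Without the 2 doubtful week-8 arrays the last 2 were 0.41 (adjusted p = 0.808) and 0.43 (adjusted p = 0.530). Within batches it was above 0 in batches 1, 2 and 5 (1.94 in batch 1 and 2.29 in batch 5) and -0.37 in batches 3 and 4. These compare different weeks: week 12, where PLTP was higher in both groups, was on the ad libitum side alone in batches 1 and 5 and on the control side alone in batch 3. At week 24 it was -0.39 (adjusted p = 0.702). With array weights the dimmer PLTP probe set passed for the mean of weeks 4 to 12 (0.79, adjusted p = 0.0403).

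PLTP was the member closest to the macrophage marker list over the 45 arrays, and the most similar of 9104 other genes was CSF1R, the macrophage growth factor receptor, which is on that list. Pearson r was 0.78 with the mean of the 18 macrophage markers, 0.75 with the fibroblast list and -0.44 with the adipocyte list, and 0.79, 0.72 and -0.58 over the 35 arrays without muscle. The macrophage list itself had 0 of 17 tested genes past the threshold at week 24. Its mean was 8.73 (8.09 to 9.90) in ad libitum and 8.77 (8.08 to 9.16) in control dogs there. At week 12 the list stood at 9.20 ± 0.47 in ad libitum dogs, against 8.77 ± 0.18 at week 0 (SD, n = 5).

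**Figure D3:**
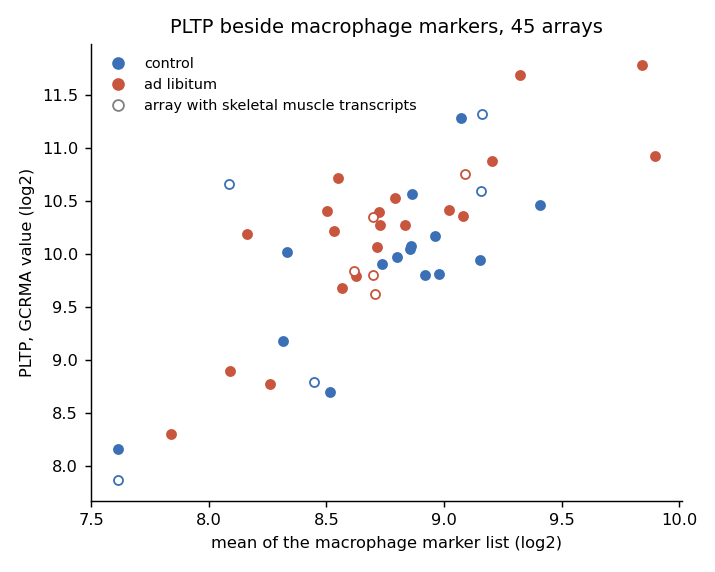
PLTP (GCRMA value, log2) against the mean of the macrophage marker list (log2) on each of the 45 arrays, coloured by feeding group, with open points for arrays with skeletal muscle transcripts. PLTP is higher on arrays with a higher list mean (Pearson r = 0.78).

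SCARB1, the high-density lipoprotein receptor, did not pass the threshold in any of the 16 comparisons of the fit described above. At week 24 it stood at 9.58, 9.22, 9.48, 9.57 and 9.72 in ad libitum dogs 2, 5, 6, 7 and 8 and at 9.30, 8.49, 9.57 and 10.11 in control dogs 1, 3, 4 and 9. The ad libitum values lay within the control range. The difference was 0.14 (95% interval -0.39 to 0.68, limma adjusted p = 0.799), and its sign was negative without the arrays with muscle and without dog 3. Group means ran from 9.37 in control dogs at week 24 to 10.39 in control dogs at week 4. From week 0 to week 4 its 2 probe sets stood at 0.81 and 0.85 in control dogs (adjusted p = 0.122 and 0.113), and without dog 1 they passed, at 1.18 and 1.16 (adjusted p = 0.0345 and 0.0354).

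VLDLR, the receptor for very-low-density lipoprotein that is abundant in fat and muscle, stood lowest in ad libitum dogs at week 12. There it was 7.22, 5.21, 6.18, 7.22 and 6.61 in dogs 2, 5, 6, 7 and 8, against 7.20, 7.13, 7.01 and 7.79 in control dogs 1, 3, 4 and 9. Ad libitum dogs 2 and 7 lay in the control range, so the groups overlapped. The difference was -1.27 (95% interval -2.34 to -0.19, limma adjusted p = 0.451), and ad libitum dogs had moved by -1.53 since week 0 (adjusted p = 0.126). By week 24 the difference was 0.35 (adjusted p = 0.715), and week 24 minus week 12 was 1.62 (adjusted p = 0.216). With array weights the week-12 difference (-1.43, adjusted p = 0.0140) and week 24 minus week 12 (2.07, adjusted p = 0.0111) passed. So did the change of ad libitum dogs from week 0 to week 12 (-1.51, adjusted p = 0.00318). Within batches 1 to 5 over weeks 4 to 12 the differences were -1.68, -1.61, -0.16, -0.20 and 0.12. These also compare weeks: in batches 1 and 2, week 12, the lowest week of both groups, made up more of the ad libitum side. The dog took 32.7% and 33.5% of the variance of its 2 probe sets, and dog 5 had the lowest mean, 6.55 ± 0.83 (SD over weeks, n = 5).

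**Figure D4:**
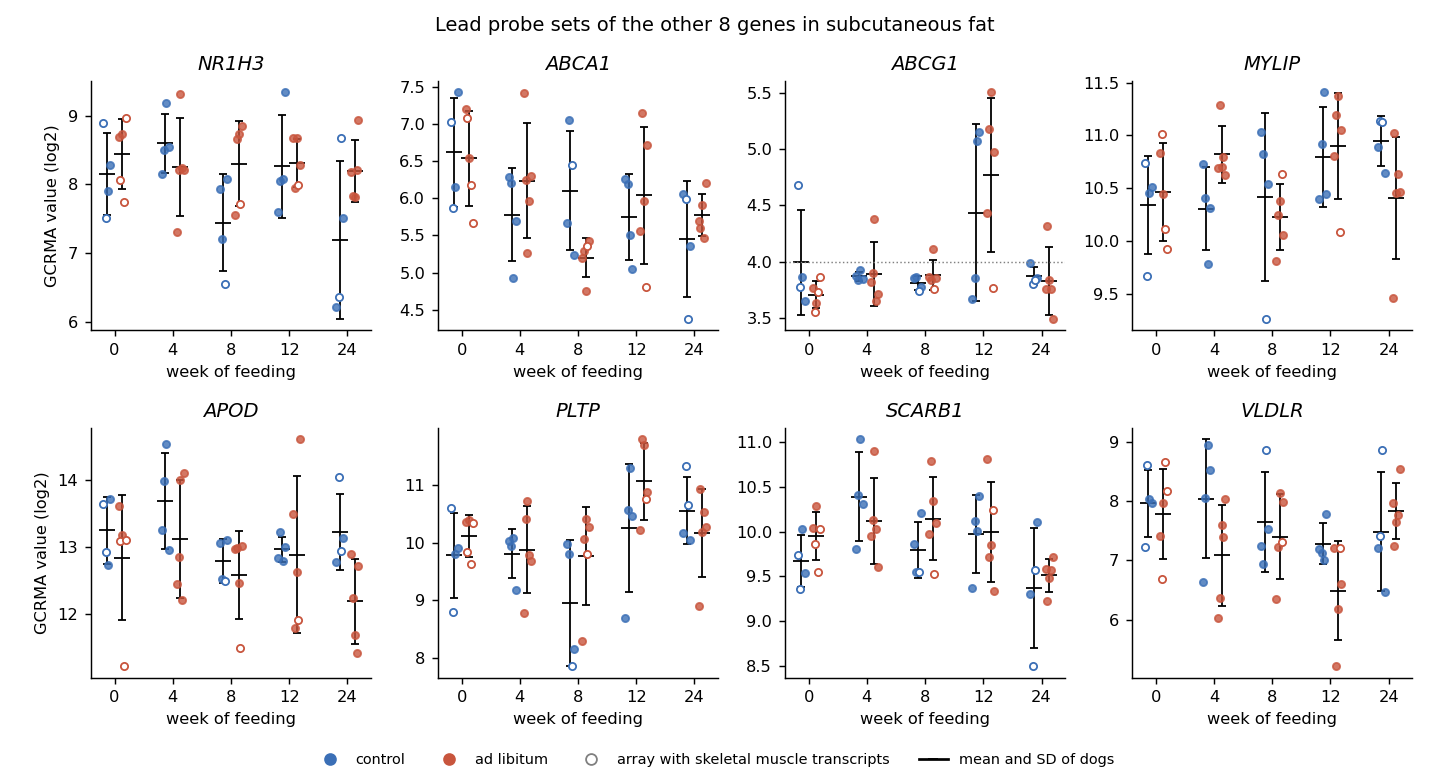
The brightest probe set of each of the other 8 genes by week of feeding (GCRMA value, log2; a separate scale for each gene), 1 point per dog, with the mean and SD of each group of 4 or 5 dogs. Open points are arrays with skeletal muscle transcripts, and the dotted line in the ABCG1 panel is the detection limit of 4. ABCA1 is lowest in ad libitum dogs at week 8 and ABCG1 is above 4.5 in 3 of 5 ad libitum dogs at week 12.

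Changes from week 0 were otherwise not past the threshold. Beside the calls given above, the count was 0 of 18 in ad libitum dogs at week 4 (0.498% of all probe sets) and in control dogs at weeks 4, 8, 12 and 24 (0.00441%, 0%, 0% and 7.92%). At an unadjusted p under 0.05 limma gave 1 of 18 there in ad libitum dogs, beside 9.63% of all probe sets. In control dogs it gave 2, 0, 1 and 1 of 18, beside 24.1%, 1.42%, 17.8% and 24.6%.

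The members did not move as a block. Of the 36 pairs of genes, the closest over the 45 arrays were NR1H3 with SCARB1 (Pearson r = 0.66), MYLIP with PLTP (0.65) and ABCG1 with PLTP (0.57). The most opposed were MYLIP with VLDLR (-0.57) and ABCG1 with VLDLR (-0.43). NR1H3 stood at -0.25 with ABCA1, 0.25 with ABCG1 and 0.28 with APOE. Over the 35 arrays without muscle these 8 values were 0.63, 0.61, 0.65, -0.56, -0.45, -0.33, 0.18 and 0.21. The arrays share dogs, batches and normalization, so these are descriptions of 45 arrays.

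The named genes whose levels were most like each member's over the 45 arrays, out of 9104, differed from member to member. For APOE they were DAG1 (Pearson r = 0.85), AHNAK (0.83) and NTPCR (0.83), and for ABCA1 they were KDM6A (0.72), TOP1 (0.70) and THOC1 (0.68). For ABCG1 they were C2, a complement component (0.79), SKAP1, an adaptor of T cells (0.78), and GZMK, a granzyme of lymphocytes (0.77). PLTP was followed by CSF1R (0.88), CMTM2 (0.87) and RAB34 (0.86), and MYLIP by LOC488622 (0.81), CCDC80 (0.81) and C1QTNF7 (0.80). APOD was followed by NRN1 (0.78), SLC2A1 (0.68) and VTN (0.67), and NR1H3 by C8H14orf93 (0.72), GMPR2 (0.72) and SLC50A1 (0.71). SCARB1 was followed by TAF10, STK16 and MYDGF (all 0.83), and VLDLR by COQ7 (0.66), LOC610164 (0.63) and FAM149A (0.62). Over the 35 arrays without muscle these 27 values lay between 0.61 and 0.88.

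Around the members, 86 genes of sterol sensing, transport, storage and lipoprotein metabolism were listed, of which 74 were on the array and 57 passed the filter. At week 24, 7 of the 57 (12.3%) passed the threshold between the groups, beside 5.46% of all probe sets. All 7 were higher in ad libitum dogs, as were 854 of the 1238 called over all probe sets, and 27 of 57 differences lay above 0. By list they were 2 of 6 other LXR target genes, 2 of 13 genes of cholesterol storage and lysosomal release, 2 of 7 other apolipoproteins and 1 of 6 plasma lipoprotein enzymes. The count was 0 of 5 nuclear receptor partners, 0 of 5 lipid transporters, 0 of 4 oxysterol enzymes and 0 of 11 other receptors.

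Among these, APOC3, which slows the clearance of triglyceride-rich particles, stood at 12.20, 9.42, 10.65, 10.25 and 11.33 in ad libitum dogs 2, 5, 6, 7 and 8 and at 7.67, 5.19, 7.84 and 9.71 in control dogs 1, 3, 4 and 9. Control dog 9 lay above ad libitum dog 5. It was higher by 3.17 (SE 0.759, limma adjusted p = 0.0129), or 8.99-fold. APOC1, which inhibits lipoprotein uptake, was higher by 2.50 (SE 0.635, adjusted p = 0.0183), at 6.40 to 9.21 in ad libitum and 4.50 to 6.55 in control dogs. In RefSeq's dog assembly APOC1 and APOE are neighbours with 0 coding genes between them. APOC4 and then APOC2 lie next to APOC1. APOC4 was above 4 on 0 arrays, and APOC2 differed by -0.04 at week 24 (adjusted p = 0.942). APOA1, the neighbour of APOC3, differed by 0.03 (adjusted p = 0.991).

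LMF1, a maturation factor of lipoprotein lipase, was higher by 1.29 (SE 0.295, limma adjusted p = 0.00952), at 7.28 to 8.79 in ad libitum dogs and 6.08 to 7.26 in control dogs, with no overlap. NCEH1, a hydrolase of cholesteryl ester, was higher by 1.63 (SE 0.423, adjusted p = 0.0205), at 8.53 to 9.80 against 7.47 to 7.86, again with no overlap. SCD, the desaturase that LXR and SREBP-1c induce, was higher by 0.72 (SE 0.146, adjusted p = 0.00505) in its brightest probe set, at 16.26 to 16.45 against 14.99 to 16.05. SREBF1, which encodes SREBP-1c, was higher by 1.67 (SE 0.510, adjusted p = 0.0470) and TSPO, a cholesterol-binding protein of mitochondria, by 0.81 (SE 0.248, adjusted p = 0.0485), and in both the groups overlapped. These calls move with the values given beside APOE: without the arrays with muscle 0 of the 7 stayed past the threshold (adjusted p = 0.148 to 0.533), and with the actin covariate that ended the APOE call only SCD did (0.84, adjusted p = 0.0157). Of 21 alternatives, the call held in 20 for SCD, 18 for LMF1, 16 for APOC3, 15 for APOC1 and 14 for NCEH1. For SREBF1 and TSPO it held in only 7 each. SREBF1 was near the limit of 4 in control dogs (3.73 to 4.47), so the size of its difference is uncertain. Each of the 7 was higher in ad libitum dogs in all 21 alternatives. Over the weeks, APOC1, NCEH1, SCD and SREBF1 had their highest ad libitum mean at week 24 (8.00, 9.30, 16.36 and 5.74). LMF1 and TSPO had their lowest there (7.95 and 12.83), and APOC3 (10.77) stood below weeks 4, 8 and 12. In control dogs all but APOC1 had their lowest mean at week 24, with LMF1 at 6.66, TSPO at 12.03 and APOC3 at 7.60. Week 24 was also batch 6.

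**Figure D5:**
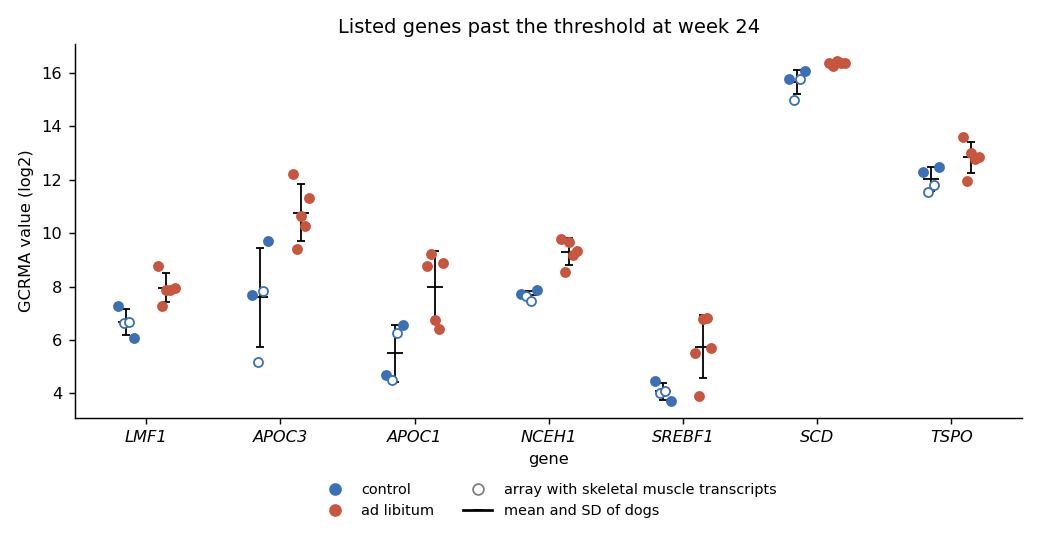
The 7 listed genes past the threshold at week 24 (GCRMA value, log2), 1 point per dog, with the mean and SD of 5 ad libitum and 4 control dogs. Open points are arrays with skeletal muscle transcripts. LMF1, NCEH1 and SCD do not overlap between the groups, while APOC3, APOC1, SREBF1 and TSPO do.

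At week 8, 8 of 57 listed genes (14.0%) passed the threshold against week 0 in ad libitum dogs, 2 higher and 6 lower, beside 6.73% of all probe sets. They were 4 of 5 lipid transporters and 2 of 5 nuclear receptor partners, all lower, and 1 of 6 plasma lipoprotein enzymes and 1 of 11 other receptors, both higher. In the same comparison the fibroblast and preadipocyte list had 2 of 12 differences above 0, a median of -0.36 and 0 past the threshold (means 12.83 at week 0 and 12.21 at week 8), and its part was not tested. ABCA6, a transporter of the A subfamily with a little-known substrate, stood at 13.40, 13.34, 12.97, 12.61 and 11.98 in dogs 2, 5, 6, 7 and 8 at week 0 and at 11.45, 11.75, 10.45, 11.99 and 11.17 at week 8. It was lower in every dog, though dog 7 at week 8 stood just above dog 8 at week 0, and it fell by 1.44 (SE 0.302, limma adjusted p = 0.0102). ABCA5 fell by 1.74, ABCA9 by 1.38 and ABCA8 by 1.27 (adjusted p = 0.0147, 0.0194 and 0.0194). In RefSeq ABCA5 and ABCA6 are adjacent, as are ABCA9 and ABCA8, with 1 coding gene between the pairs, and probe sets of such related genes could share signal, which was not tested.

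LCAT, which esterifies cholesterol on high-density lipoprotein, stood at 9.65, 9.84, 10.29, 9.55 and 10.99 at week 0 and at 12.18, 11.60, 12.08, 11.57 and 12.17 at week 8, with no overlap. It rose by 1.75 (SE 0.374, limma adjusted p = 0.0112), or 3.37-fold. SORT1 rose by 0.94, and the nuclear receptor corepressor NCOR1 and coactivator NCOA1 fell by 0.76 and 0.98 (adjusted p = 0.0231, 0.0137 and 0.0141). All 8 calls held without the 2 week-8 arrays that matched another dog and without the arrays with muscle. All were lost without dog 2 and without dog 5, and 7 of the 8, all but LCAT, without dog 6. ABCA8 and ABCA9 were also lost with the second actin covariate, and SORT1 with either. Between the groups at week 8, NCOA1 (-0.95, adjusted p = 0.0432) and ABCA5 (-1.67, adjusted p = 0.0452) passed, 2 of 57 (3.51%) beside 1.42% of all probe sets, and neither did without those 2 arrays.

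Few other listed genes passed. In ad libitum dogs at week 24, APOC2, the cofactor of lipoprotein lipase, fell by 0.68 from week 0 (SE 0.197, limma adjusted p = 0.0389), 1 of 57 (1.75%) beside 4.78% of all probe sets. In control dogs at week 24, LRP1 rose by 1.00, LRP6 rose by 1.24 and LMF1 fell by 1.32 from week 0 (adjusted p = 0.0116, 0.0337 and 0.00954), 3 of 57 (5.26%) beside 7.92% of all probe sets. Without the arrays with muscle these 3 missed the threshold (1.07, 1.12 and -1.09; adjusted p = 0.265, 0.361 and 0.447), as did APOC2. NR1H2, which encodes LXRβ, stood at -0.29 at week 24 (adjusted p = 0.511). LRP8 and RXRA were above 4 on 0 of 45 arrays.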

How the data were processed

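The authors' deposited table holds GCRMA values on the log2 scale for 43035 probe sets and 45 arrays of RNA labelled with biotin, per the labels' protocols and the submitters' processing notes; which GCRMA version was used is not given in the sources used here. Deposited values span 0.42 to 17.51, array medians lie between 3.60 and 3.83, and the number of arrays limits the precision. Probe sets were named from the platform annotation; of those tested, 16915 had 1 symbol, 271 several and 5504 none. Group-by-week means and a batch term were fitted with limma 3.58.1 in R 4.3.3, with the dog as a random block because the same dogs were sampled at every week (correlation 0.00562, 31 residual degrees of freedom); the code was tested on simulated data. The named genes are all member probe sets, listed genes past the threshold (up to 12 at week 24 and 3 in another comparison by p; the others named were added after their values were seen), and the 3 genes most like each member. The members and lists were chosen with earlier results of these data known. Alternatives changed the filter, batch term, dog block, normalization, weights, variance prior, covariates and arrays used. A search of promoters for motifs was not run, as no sequence table was used here.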

Additional observations from a re-analysis of the deposited data

Results flagged for a closer look

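Of 90 groups of 4 or 5 dogs (9 genes in 10 groups), 4 held 1 dog far from the others by Dixon's test, where chance gives about 1 in 20. APOD was 11.22 in ad libitum dog 7 at week 0, whose array held muscle, against 13.09 to 13.60 in the other 4 dogs. MYLIP was 11.29 in ad libitum dog 5 at week 4, against 10.63 to 10.79. PLTP was 8.30 in ad libitum dog 2 at week 8, against 9.80 to 10.40, and 9.17 in control dog 9 at week 4, against 9.94 to 10.08.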

How the results depend on the processing

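Counts of member probe sets past the threshold in the 16 comparisons stayed within 1.5 times the given count in 299 of 346 alternatives and moved in 47. The share of all probe sets past the threshold is not given for the alternatives. A rise or fall in a member count may therefore be shared with the whole array. With array weights, of the 18 member probe sets tested, the counts were 1 at week 12 and 3 at week 24. They were 1 for the mean of weeks 4 to 12 and 6 for week 24 minus week 12. From week 0 they were 2, 3 and 8 at weeks 4, 8 and 12 in ad libitum dogs. In control dogs they were 1 and 2 at weeks 12 and 24. Without the arrays with muscle the count was 0 at week 24 and 0 for week 24 minus week 0 in ad libitum dogs. For week 8 minus week 0 in ad libitum dogs it was 0 with no filter, with quantile normalization, with either actin covariate and without the 2 doubtful week-8 arrays, and 2 with no batch term. For week 12 minus week 0 it was 0 with no filter, with the stricter filter and with the muscle covariate. For week 24 minus week 0 it was 1 with no filter, with quantile normalization and with the muscle covariate, which also gave 1 in control dogs. The second actin covariate, chosen after the data were seen, gave 0 at week 24. Leaving out each dog in turn gave 0 to 1 at week 24, and from week 0 in ad libitum dogs 0 to 2, 0 to 1 and 0 to 2 at weeks 8, 12 and 24, and in control dogs 0 to 3, 0 to 2 and 0 to 1 at weeks 4, 12 and 24.

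Without the replicate block the counts were 1 at week 24 and, from week 0 in ad libitum dogs, 1, 1 and 2 at weeks 8, 12 and 24, and with the dog as a fixed term they were also 1, 1 and 2, so pairing by dog changed no count. A direct difference at a single week has no estimate within dogs, so the fixed term gives none.

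Signs turned at week 24 for 3 uncalled differences: SCARB1 (-0.23 without the arrays with muscle, -0.15 to 0.39 over dogs left out), ABCG1 (0.0074 with quantile normalization, 0.0216 and 0.076 with the actin covariates, -0.16 to 0.0456 over dogs left out) and ABCA1 (-0.0287 to 0.53 over dogs left out); the cause was not tested. In all, 30 uncalled differences were followed, for signs too. They had an unadjusted limma p under 0.05 or belonged to a brightest probe set at week 24. Of their 642 alternatives, 615 kept direction and side of the threshold, 20 passed it and 7 turned sign. Other uncalled differences that passed in an alternative are not among the 20. The number of dogs, 4 and 5, limits what can be detected, and ABCG1 is limited by its signal near 4.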
